A study of Mus musculus with 4 samples.

Results

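Mitosis and G2/M genes encode the machinery that carries a cell from the end of DNA replication through chromosome segregation to the splitting of the daughter cells. A list of 42 such genes was followed here in mouse marrow cells that had been sorted as haematopoietic stem cells. Members were taken from the list by symbol, each through the brightest probe set that carried 1 gene symbol, and 41 of the 42 had a value, among 22180 genes in all. Each of the 41 was read by 1 probe set. Ccnb1, which encodes cyclin B1, the main partner of Cdk1 at mitotic entry, is not analysed here, because no probe set with that symbol stood in the annotation used.

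The arrays were 4 of the Affymetrix Mouse Gene 2.0 ST type, 1 per genotype. The genotypes were a Fancd2 knockout (Fancd2KO), a Foxo3a knockout (Foxo3aKO), the knockout of both genes (DKO) and wild type (WT). All mice were 2 months old, and the sorted marrow cells lacked lineage antigens and CD34 and carried c-Kit and Sca-1. The labels call these cells SLAM cells without listing the antigens of that name, and the sources used here give no knockout allele, strain, sex or number of mice per array. Fancd2 acts in the Fanconi anaemia pathway of crosslink repair, and Foxo3a is a forkhead factor known for stem cell quiescence, so the design sets each loss alone and both together beside WT. No genotype had a replicate, so no difference below has a test or an error of its own, and the 3 comparisons with WT share the WT array.

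Most haematopoietic stem cells rest outside the cell cycle, and transcripts of mitosis genes are low in resting cells and high in dividing progenitors. Transcription of these genes peaks in G2 and mitosis. In resting cells the DREAM complex represses many of them through a promoter element named CHR (cell cycle genes homology region), and in cycling cells B-Myb, the MuvB core and Foxm1 activate them, often together with NF-Y at CCAAT boxes. Their proteins then act in order: Cdk1 and polo and Aurora kinases start mitosis, motors build the spindle, kinetochores and the checkpoint hold anaphase back, and the anaphase-promoting complex releases it.

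Members shared promoter letters that the list itself did not use. RefSeq promoter windows of 300 bases, 250 before and 50 after the annotated start (build GRCm38.p6), were matched by symbol for 34 of the 42 members. A CHR, searched as TTTGAA or TTCGAA on both strands, stood in 25 of 34 member windows (73.5%) and in 21.7% of the windows of all 27025 genes in the table. A CCAAT box, searched as CCAAT on both strands, stood in 25 of 34 member windows (73.5%) and in 41.1% of all windows. Both stood in 22 of 34 (64.7%), against 9.65% of all windows. The E2F motif TTCCCGC, known from S-phase genes, stood in 1 member window, that of the centriole kinase gene Plk4 (2.94%), and in 5.29% of all. No match of 1 motif overlapped a match of another in the member windows, and a match is a run of letters, not a binding site.

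The members with the largest differences from WT among those with a window, Cenpa, Cdc20, Aurka and Kif23, are shown over 120 bases before and 30 after the start, on the gene's strand and 5′ to 3′. Capitals mark CHR (TTTGAA) and CCAAT boxes (CCAAT, or ATTGG where the box lies on the other strand). Cenpa lies at chr5:30666766-30666915 on the plus strand, Cdc20 at chr4:118437314-118437463, Aurka at chr2:172370541-172370690 and Kif23 at chr9:61946770-61946919, all 3 on the minus strand.
Cenpa: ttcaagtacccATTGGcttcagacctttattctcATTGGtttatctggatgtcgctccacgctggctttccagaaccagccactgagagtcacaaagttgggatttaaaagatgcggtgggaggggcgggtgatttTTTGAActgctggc
Cdc20: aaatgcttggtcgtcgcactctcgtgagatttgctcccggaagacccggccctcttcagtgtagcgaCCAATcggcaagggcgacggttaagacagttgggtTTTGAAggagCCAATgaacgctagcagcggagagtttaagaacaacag
Aurka: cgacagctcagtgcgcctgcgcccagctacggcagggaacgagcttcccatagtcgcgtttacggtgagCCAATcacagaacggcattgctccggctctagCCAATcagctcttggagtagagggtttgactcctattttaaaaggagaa
Kif23: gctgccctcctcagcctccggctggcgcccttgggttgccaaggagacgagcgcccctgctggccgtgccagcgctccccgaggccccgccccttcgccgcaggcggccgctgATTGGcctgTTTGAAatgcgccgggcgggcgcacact

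Windows of Cdk1 (chr10:69352883-69353032, minus strand) and Ccnb2 (chr9:70421525-70421674, minus strand), chosen after their matches were seen, show several boxes close together.
Cdk1: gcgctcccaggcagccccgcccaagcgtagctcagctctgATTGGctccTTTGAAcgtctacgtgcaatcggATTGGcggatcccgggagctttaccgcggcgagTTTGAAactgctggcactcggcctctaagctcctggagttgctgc
Ccnb2: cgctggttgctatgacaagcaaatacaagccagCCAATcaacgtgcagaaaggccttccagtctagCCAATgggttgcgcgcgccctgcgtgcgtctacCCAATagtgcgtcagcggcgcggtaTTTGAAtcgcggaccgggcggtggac

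In the Cenpa window 2 inverted CCAAT boxes lay 109 and 86 bases upstream of the start and the CHR lay 17 bases downstream of it. The Cdc20 window held its CHR 18 bases upstream of the start, between CCAAT boxes 53 and 8 bases upstream. The Aurka CHR lay 33 bases downstream, beyond the printed bases, and its CCAAT boxes 51 and 19 bases upstream. In Kif23 the inverted CCAAT box and the CHR lay 7 bases upstream and 3 bases downstream of the start. The Cdk1 window held CHRs 71 and 15 bases upstream of the start, with inverted CCAAT boxes 80 and 48 bases upstream in the printed stretch. Ccnb2 held 3 CCAAT boxes, 87, 54 and 21 bases upstream, and a CHR 5 bases downstream in the printed stretch.

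The arrays were close to each other, and markers of the cells were checked. Array medians over 41345 probe sets lay between 5.27 and 5.34, and pairs of arrays correlated at 0.965 to 0.969 across probe sets. Fancd2 stood at 6.08 on the Fancd2KO array, 6.67 on Foxo3aKO, 5.84 on DKO and 6.56 on WT, so both arrays labelled as lacking Fancd2 were lower. Foxo3 stood at 6.72 on Fancd2KO, 6.64 on Foxo3aKO, 6.51 on DKO and 6.62 on WT, so its probe set did not set the labelled arrays apart from the others. Which exons the Foxo3a allele removes is not stated in the sources used here, so the Foxo3a labels were not checked by it. Kit, the receptor used in the sort, stood at 10.41, 10.57, 10.43 and 10.67 on Fancd2KO, Foxo3aKO, DKO and WT. Cd34, whose product the gate left out, stood at 10.28, 9.67, 10.36 and 10.79 in the same order, well above the median gene value of 5.51.

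All 41 measured members stood above that median, 5.51, on all 4 arrays, and their means over the arrays ran from 6.49 to 9.79. Their levels were nearly the same in the 4 genotypes. Summed on the linear scale, the 41 members gave 12112 on Fancd2KO, 12345 on Foxo3aKO, 12355 on DKO and 12226 on WT. In RNA from bulk samples such as these, fewer dividing cells and less RNA per cell cannot be told apart. The span from a member's lowest to its highest array had a median of 0.30 log2, against 0.43 for all genes and 0.44 for the 7490 other genes whose means lay within the members' range. It was under 0.4 in 35 of 41 members (85.4%), in 45.3% of all genes and in 44.0% of the genes of the same level. The smallest span was that of the checkpoint kinase gene Ttk, 0.11, and the largest that of Cenpa, 0.66.

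**Figure D1:**
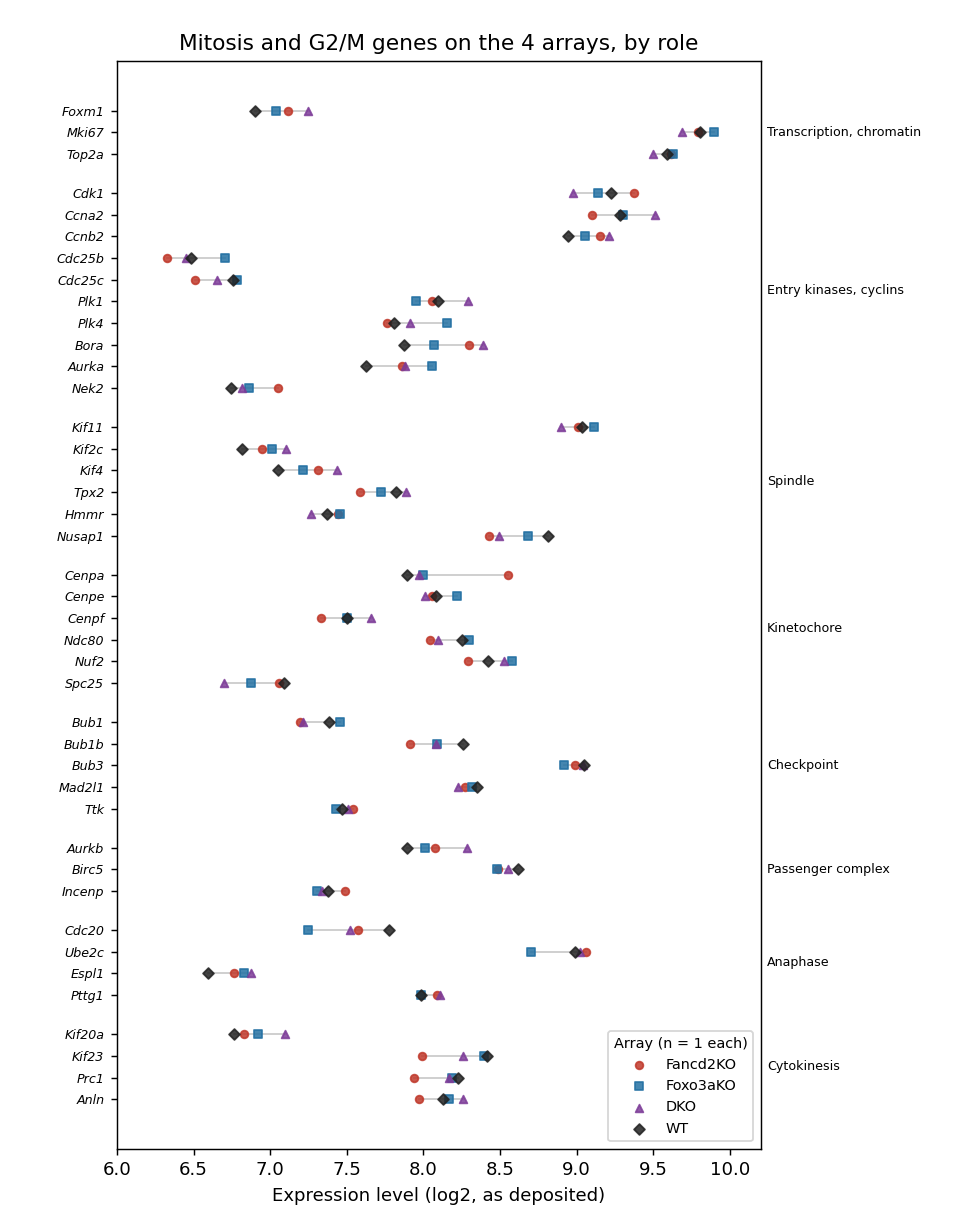
Expression level (log2, x axis) of each of the 41 measured mitosis and G2/M genes on the Fancd2KO, Foxo3aKO, DKO and WT arrays (1 array each), grouped by role, with a grey line from the lowest to the highest array. The median span is 0.30, and Cenpa on Fancd2KO, at 8.55, stands farthest from the other arrays of its gene.

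Differences from WT were small in all 3 knockouts. The median over the 41 members was -0.03 log2 in Fancd2KO, 0.04 in Foxo3aKO and 0.03 in DKO, against 0.00, -0.01 and 0.02 over all genes. Over the genes of the same level it was -0.02, -0.06 and -0.05. Of the 123 differences from WT, 86 (69.9%) lay within 0.2 log2 of 0, against 49.1% for all genes and 49.2% for genes of the same level. Only 1 of the 123 reached 1.5-fold, a log2 difference of 0.58.

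In Fancd2KO, 18 members were above WT and 23 below. The count at least 1.5-fold higher was 1 of 41, against 4.77% of all genes, and the count at least 1.5-fold lower was 0, against 5.13% of all genes. In Foxo3aKO, 26 members were above WT and 15 below. None of the 41 was at least 1.5-fold higher, where 5.07% of all genes were, and none was 1.5-fold lower, where 5.39% were. In DKO, 21 members were above WT and 20 below, with 0 at least 1.5-fold higher (4.95% of all genes) and 0 lower (4.93%). At the all-gene shares a list of this size would hold only a few such genes, so the counts of 0 and 1 lie below the background by a small number of genes.

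**Figure D2:**
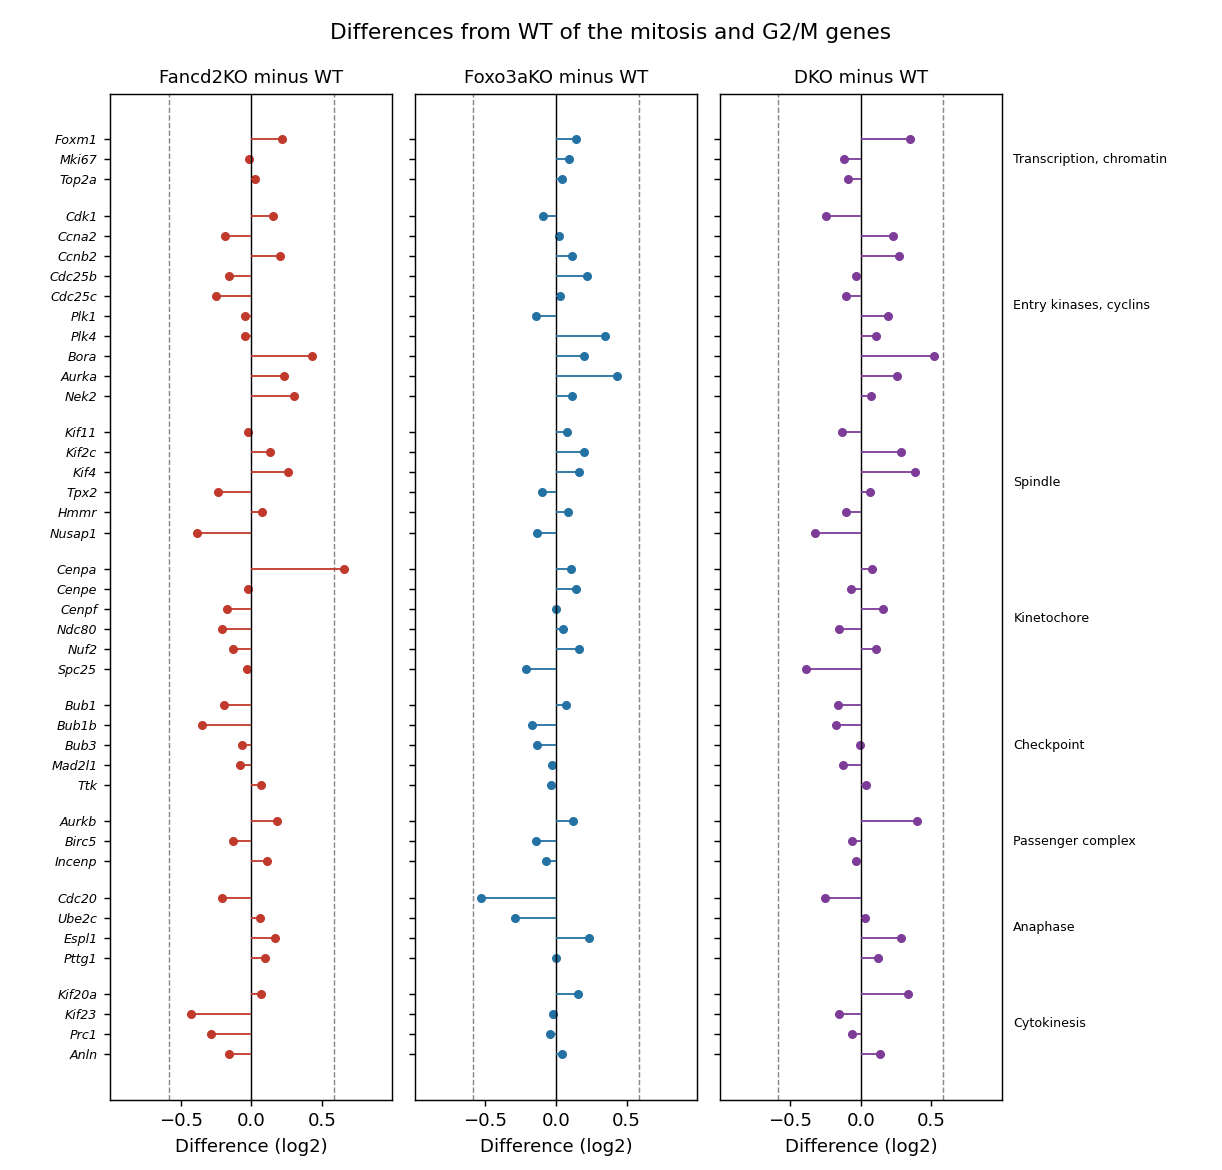
Difference from WT (log2, x axis) of each member in Fancd2KO, Foxo3aKO and DKO, from 1 array each, with dashed lines at 1.5-fold. Cenpa in Fancd2KO, at 0.66, is the single point past a dashed line.

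The spread of the members' differences was narrower than that of other genes. The interquartile range was 0.30 in Fancd2KO, 0.21 in Foxo3aKO and 0.31 in DKO for the members. It was 0.39, 0.42 and 0.41 for all genes and 0.37, 0.45 and 0.40 for the genes of the same level. Single arrays give no replicate error, so the disagreement between probe sets of 1 gene was used as a measure of probe set error. It holds the errors of both probe sets and any difference between the transcripts they read. Errors that a whole array or RNA sample shares cancel in it, so it does not bound technical error. Over 210 genes with 2 probe sets in the members' level range, the probe sets disagreed about the same difference from WT with an SD of 0.39 in Fancd2KO, 0.41 in Foxo3aKO and 0.39 in DKO, and 95% of the disagreements were within 0.79, 0.79 and 0.80. Every member difference from WT, Cenpa's included, lay within those limits, and the SD of the members' differences was smaller, 0.22 in Fancd2KO, 0.17 in Foxo3aKO and 0.21 in DKO. A disagreement holds the errors of 2 probe sets and a member difference that of 1, so the measures are unlike. Neither comparison tells whether a member difference, Cenpa's included, is error.

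**Figure D3:**
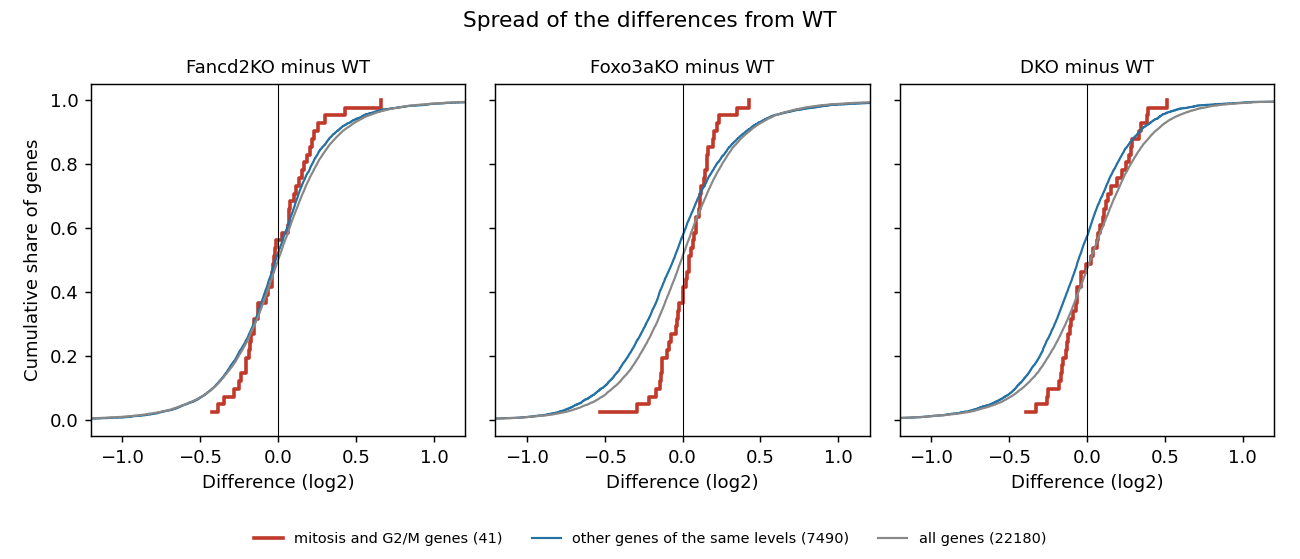
Cumulative share of genes (y axis) by difference from WT (log2, x axis) for the 41 members, the 7490 other genes of the same levels and all 22180 genes, in Fancd2KO, Foxo3aKO and DKO. The members' curve is steeper than both others in Foxo3aKO, where its interquartile range was 0.21.

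Values of the remaining paragraphs are log2 levels on the Fancd2KO, Foxo3aKO, DKO and WT arrays, in that order, unless said otherwise. Cenpa, Mki67, Top2a, Cdk1, Plk1, Foxm1, Aurkb and Birc5 were named by a rule, and the other members that are singled out were chosen after their values were seen. Mki67 encodes Ki-67, the chromatin-coating protein used as a proliferation mark, and stood at 9.79, 9.89, 9.69 and 9.80. Top2a, the topoisomerase that untangles sister chromatids, stood at 9.61, 9.63, 9.50 and 9.59. As deposited, both genes were lowest on DKO, by 0.12 and 0.09 below WT, and differed from WT by at most 0.09 in either direction in the single knockouts. After quantile normalisation their DKO differences from WT were -0.04 for Mki67 and 0.007 for Top2a. Foxm1, the forkhead activator of G2/M genes, stood at 7.12, 7.04, 7.24 and 6.90, above WT by 0.22, 0.14 and 0.34 and lowest on the WT array.

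Among the kinases, cyclins and phosphatases of mitotic entry, 10 of 11 listed genes were measured. Cdk1, the kinase whose activity starts mitosis, stood at 9.38, 9.14, 8.98 and 9.23. It was highest on Fancd2KO, 0.15 above WT, and lowest on DKO, 0.25 below WT. Plk1, the polo kinase of entry, spindle and cytokinesis, stood at 8.05, 7.95, 8.29 and 8.09, highest on DKO, 0.19 above WT. The group's medians were 0.06 in Fancd2KO, 0.11 in Foxo3aKO and 0.15 in DKO relative to WT.

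Bora, the cofactor through which Aurora A activates Plk1, stood at 8.30, 8.07, 8.39 and 7.87. Its 0.51 in DKO was the largest difference from WT of any member on that array. Aurka, which encodes Aurora A itself, stood at 7.86, 8.06, 7.88 and 7.63, and its 0.43 in Foxo3aKO was the highest member difference there. Both genes were lowest on WT. Ccnb2, a B-type cyclin, stood at 9.15, 9.06, 9.21 and 8.95, and Ccna2, the S and G2 cyclin, at 9.10, 9.31, 9.51 and 9.28. Both cyclins were highest on DKO, by 0.27 and 0.23 above WT, and they lay on opposite sides of WT in Fancd2KO, at 0.21 and -0.18. The Cdk1-activating phosphatase genes Cdc25b and Cdc25c were both lowest on Fancd2KO, at 6.33 and 6.51, against 6.48 and 6.76 on WT. Plk4, the centriole duplication kinase gene, was highest on Foxo3aKO, 0.35 above WT, and the centrosome kinase gene Nek2 was highest on Fancd2KO, 0.30 above WT.

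The 6 spindle members had medians of 0.02 in Fancd2KO, 0.08 in Foxo3aKO and -0.02 in DKO relative to WT. Kif4, a chromokinesin gene, stood at 7.31, 7.21, 7.44 and 7.05, and Kif2c, the microtubule-depolymerising kinesin of centromeres, at 6.95, 7.01, 7.10 and 6.82. Both were lowest on WT and highest on DKO. Nusap1, a microtubule-bundling protein gene, stood at 8.43, 8.68, 8.49 and 8.82, highest on WT and 0.39 below it in Fancd2KO. Kif11, the motor that pushes spindle poles apart, Tpx2, the Aurora A activator of spindle assembly, and Hmmr, a spindle pole protein gene, stayed within 0.24 log2 of WT on every knockout array.

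Cenpa encodes the histone H3 variant that marks centromeres. It stood at 8.55 on Fancd2KO, 7.995 on Foxo3aKO, 7.97 on DKO and 7.89 on WT. The Fancd2KO array stood apart, at 0.66 log2 or 1.58-fold above WT, while Foxo3aKO and DKO were 0.10 and 0.08 above WT. DKO was 0.58 below Fancd2KO, just short of 1.5-fold. The other kinetochore members were 0.02 to 0.20 below WT in Fancd2KO. They were the motor gene Cenpe, its kinetochore partner Cenpf, and Ndc80, Nuf2 and Spc25 of the complex that grips microtubules. Spc25 was lowest on DKO, at 6.70 against 7.09 on WT, and Nuf2 and Ndc80 were highest on Foxo3aKO, at 8.58 and 8.30 against 8.42 and 8.25 on WT.

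Members of the spindle assembly checkpoint, which holds anaphase back until chromosomes are attached, had medians of -0.08 in Fancd2KO, -0.04 in Foxo3aKO and -0.13 in DKO. In each knockout 4 of the 5 were below WT. Bub1b, which encodes BubR1, stood at 7.91, 8.09, 8.08 and 8.26, highest on WT and lowest on Fancd2KO, 0.35 below WT. Bub3 and Mad2l1, whose products join BubR1 and Cdc20 in the inhibitory complex, were also highest on WT but within 0.14 of it on every array. The kinase genes Bub1 and Ttk stayed within 0.19 and 0.07 of WT.

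The chromosomal passenger complex corrects faulty attachments and directs cytokinesis. Aurkb, its kinase, stood at 8.08, 8.01, 8.29 and 7.89, lowest on WT and highest on DKO, 0.40 above WT. Birc5, which encodes survivin, stood at 8.49, 8.48, 8.56 and 8.62, highest on WT, which the knockouts were below by at most 0.14. Incenp, the scaffold gene, stood at 7.49, 7.30, 7.34 and 7.37, above WT in Fancd2KO by 0.11 and below it in the other knockouts by at most 0.07.

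Of the anaphase members, Cdc20, the activator of the anaphase-promoting complex, stood at 7.57, 7.25, 7.52 and 7.78. It was highest on WT and lowest on Foxo3aKO, where its -0.53, or 1.45-fold lower, was the lowest member value of the 3 comparisons with WT. Ube2c, the ubiquitin-conjugating enzyme of the same complex, stood at 9.06, 8.70, 9.02 and 8.99, lowest on Foxo3aKO as well, 0.29 below WT. Espl1, which encodes separase, was 0.17, 0.23 and 0.28 above WT, and Pttg1, which encodes its inhibitor securin, differed from WT by at most 0.12.

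Of the cytokinesis members, Kif23, a motor of the central spindle, stood at 7.99, 8.39, 8.26 and 8.42. Fancd2KO was the low array, 0.42 below WT, while Foxo3aKO was within 0.02 of WT. Prc1, the bundler of the central spindle, stood at 7.94, 8.19, 8.17 and 8.23, and Anln, the scaffold of the contractile ring, at 7.97, 8.17, 8.26 and 8.13, both lowest on Fancd2KO. Kif20a, another central spindle motor gene, was lowest on WT at 6.76 and highest on DKO at 7.10. The 4 genes were all higher on DKO than on Fancd2KO, by 0.22 to 0.29.

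Each loss could also be read on the background of the other, in a pair of arrays that shares none with the first. For Fancd2 loss, the pairs were Fancd2KO minus WT and DKO minus Foxo3aKO. DKO minus Foxo3aKO had a member median of -0.01, against 0.04 for all genes and 0.02 for genes of the same level. Its count of members was 0 at least 1.5-fold higher (4.98% of all genes) and 0 at least 1.5-fold lower (5.18%). Of the members, 12 (29.3%) were higher with Fancd2 loss in both pairs, against 27.1% of all genes, and 15 (36.6%) were lower in both, against 21.9% of all genes. The remaining 14 (34.1%) differed in direction, against 51.0% of all genes. Bora was above 0 in both, at 0.43 and 0.31, the highest member when ranked by the smaller of the pair of values, although Cenpa (0.66) exceeded it in the first pair and Plk1 (0.34) and Ube2c (0.32) in the second. Kif23 and Nusap1 were below 0 in both, at -0.42 and -0.14 for Kif23 and -0.39 and -0.19 for Nusap1. Cenpa, at 0.66 in the pair with WT, stood at -0.02 in the pair with Foxo3aKO.

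For Foxo3a loss, the pairs were Foxo3aKO minus WT and DKO minus Fancd2KO. DKO minus Fancd2KO had a member median of 0.06, against 0.02 for all genes and -0.04 for genes of the same level. It had 0 members at least 1.5-fold higher (4.96% of all genes) or lower (4.74%). With Foxo3a loss, 19 members (46.3%) were higher in both pairs, against 25.6% of all genes and 19.2% of genes of the same level. Lower in both were 7 members (17.1%), against 24.3% of all genes and 32.7% of genes of the same level, and 15 (36.6%) differed in direction, against 50.1% of all genes. The number higher in both was 15 when each array was centred on its median, and the number lower in both was 4 after quantile normalisation. The shares above are those of the deposited values, so they are no background for these 2 counts. These counts take in differences of any size, also those under the probe set disagreement, and Foxo3a loss is as labelled. Cdc20, at -0.53 in Foxo3aKO minus WT, stood at -0.05 in DKO minus Fancd2KO, and Aurka, at 0.43 in the first pair, stood at 0.02 in the second.

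**Figure D4:**
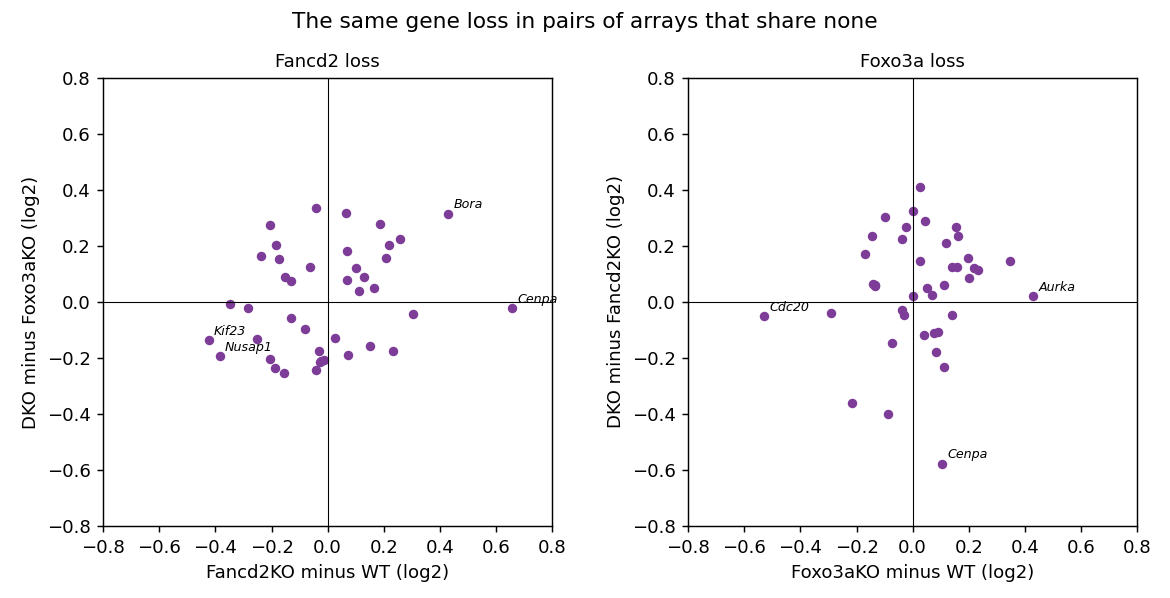
Each member's difference for Fancd2 loss (left) and Foxo3a loss (right), in log2, with the pair that holds WT on the x axis and the pair that holds DKO and the other single knockout on the y axis. Bora lies high in both Fancd2 pairs, at 0.43 and 0.31, while Cenpa lies at 0.66 in the first and -0.02 in the second.

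Departure of DKO from the sum of the single differences, DKO minus Fancd2KO minus Foxo3aKO plus WT, had a member median of -0.01 and ran from -0.68 for Cenpa to 0.48 for Cdc20. The value for Cenpa followed mostly from its level on Fancd2KO, since Foxo3aKO and DKO were only 0.10 and 0.08 above WT. Cdc20 was below WT in all 3 knockouts, at -0.21, -0.53 and -0.26, with the largest of these differences in Foxo3aKO.

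Other genes of the same processes, from lists chosen with earlier results of these data known, were set beside the members. In Fancd2KO, Foxo3aKO and DKO, 4.77%, 5.07% and 4.95% of all genes were at least 1.5-fold higher and 5.13%, 5.39% and 4.93% lower. The 23 further spindle and cytokinesis genes had medians of 0.03 in Fancd2KO, -0.02 in Foxo3aKO and -0.14 in DKO relative to WT, with 0 past 1.5-fold in any knockout. Those with the largest differences were the kinesin genes Kifc1 (-0.50 in Fancd2KO) and Kif18a (-0.49 in DKO) and the cytokinesis regulators Ect2 (-0.48 in DKO) and Arhgap11a (-0.44 in DKO). The 31 measured kinetochore and checkpoint genes had medians of -0.07, -0.11 and -0.03. Of these, 1 (3.23%) was at least 1.5-fold higher in each knockout, below the share of all genes. At least 1.5-fold lower were 2 (6.45%) in Fancd2KO, 3 (9.68%) in Foxo3aKO and 3 (9.68%) in DKO. The centromere gene Cenpi differed from WT by 0.49, 0.73 and 1.02. Ska2, of the microtubule-tracking Ska complex, differed by -0.82, -0.50 and -0.60. The centromere gene Cenpq was 0.82 below WT in DKO, and Spc24, the partner of Spc25, was 0.75 below WT in Foxo3aKO.

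The 16 measured condensin and cohesin genes, which compact chromosomes and hold sisters together, had medians of -0.01, 0.01 and -0.07. The cohesin gene Smc3, at -0.59 in DKO, was the 1 gene past 1.5-fold, and the condensin genes Smc4, Ncaph2 and Ncapd2 differed by at most 0.47 in size. The 17 genes of the anaphase-promoting complex and its partners had medians of -0.01, -0.16 and -0.09. In Fancd2KO, Foxo3aKO and DKO, 0 were higher by 1.5-fold and 1, 3 and 1 lower. The lower ones made up 5.88%, 17.6% and 5.88%, against 5.13%, 5.39% and 4.93% of all genes. Ube2s, the chain-extending enzyme that works with Ube2c, stood at 9.79, 8.76, 9.54 and 9.80, low on Foxo3aKO like Cdc20 and Ube2c. The subunit genes Anapc11 and Anapc16 were lowest relative to WT at -0.70 in Foxo3aKO and -0.65 in DKO, and Fzr1, the Cdh1 activator gene, was at -0.63, -0.60 and -0.15.

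Larger differences stood among 15 further entry kinases and Cdk partners, whose medians were -0.00, 0.13 and 0.01. Of them, 3 in Fancd2KO (20%), 3 in Foxo3aKO (20%) and 1 in DKO (6.67%) were at least 1.5-fold higher, against 4.77%, 5.07% and 4.95% of all genes. In each, 1 (6.67%) was lower, against 5.13%, 5.39% and 4.93% of all genes. Plk2, a polo kinase gene known as a stress and p53 target, stood at 8.93, 8.61, 7.75 and 6.96, high in both single knockouts and between them and WT in DKO. Plk3, another stress-related polo kinase gene, stood at 7.34, 7.91, 6.91 and 6.52. The mitotic kinase gene Nek6 was 0.83 above WT in Fancd2KO, and Cks2, a small Cdk subunit gene, 0.78 above WT in Foxo3aKO. The 13 genes of the DREAM, B-Myb and MuvB complexes had medians of -0.12, 0.04 and -0.02. Lin9, of the MuvB core, at -1.002 in DKO, was the 1 gene past 1.5-fold, and E2f5, Rbl2 and Lin37 differed by at most 0.54 in size.

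Replication and G1/S genes, of which 57 were measured, had medians of 0.04, -0.13 and -0.06. Of them 3, 0 and 1 were at least 1.5-fold higher and 0, 3 and 1 lower in Fancd2KO, Foxo3aKO and DKO. The higher ones made up 5.26%, 0% and 1.75%, against 4.77%, 5.07% and 4.95% of all genes. The lower ones made up 0%, 5.26% and 1.75%, against 5.13%, 5.39% and 4.93% of all genes. The repressor gene E2f7 was 1.03 above WT in Fancd2KO, the origin recognition gene Orc1 and the single-strand binding gene Rpa2 both 0.82 above it, and the maintenance methylation factor Uhrf1 was 0.80 below WT in Foxo3aKO. The 14 measured Cdk inhibitor and antiproliferative genes had the highest medians of these lists in the single knockouts, 0.19 and 0.36, with 0.13 in DKO. Cdkn1a, which encodes the Cdk inhibitor p21, stood at 10.22, 8.14, 7.48 and 7.21, highest on Fancd2KO and 3.01 above WT there. Btg2, an antiproliferative p53 target, was 0.91, 1.10 and 0.36 above WT. Gadd45g, a stress gene, was dim at 5.69, 5.44, 5.48 and 4.57, with only Fancd2KO above 5.51, and Cdkn1b, which encodes p27, differed by -0.51, -0.89 and -1.01. The mitosis members stood within 0.66 of WT on the same arrays.

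Markers of other cell types also differed between the arrays, and their part in the members' values was not tested. All 15 neutrophil and promyelocyte markers stood above 5.51 on every array, with summed linear levels of 32384 in Fancd2KO, 46921 in Foxo3aKO, 33212 in DKO and 37952 in WT. S100a8, the brightest of them, stood at 12.88, 13.07, 12.91 and 13.02, above Kit on every array. The median difference of the 15 from WT was -0.35, 0.40 and -0.25, with 4, 14 and 6 of them above WT. The largest differences of that list were those of Ly6g, of mature neutrophils, at 8.40, 10.47, 7.96 and 9.75, of the neutrophil genes Retnlg (-0.92, 0.29 and -1.24 from WT) and Mmp8 (-0.47, 1.014 and -0.54), and of Elane, a granule enzyme gene of promyelocytes, at 10.72, 10.79, 11.11 and 10.11. Elane was lowest on WT, while the other 3 were highest on Foxo3aKO. Mpo (0.18, 0.24 and 0.36 from WT), Prtn3 (0.25, -0.04 and 0.22) and Ctsg (0.43, 0.57 and 0.61) were named after their values were seen. With Elane they were the 4 markers of the list above WT in Fancd2KO, where the other 11 were below it.

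The 9 measured markers of multipotent progenitors, a dividing population, had median differences of -0.66, -0.67 and -1.30 and summed linear levels of 4714, 2793, 4222 and 10219. Ighm, also a B cell gene, made up most of the WT sum, at 12.73 on WT. Without it, an alternative added after the data were seen, the sums were 2049, 1701, 2111 and 3410 and the medians -0.61, -0.51 and -1.03. Dntt, at 7.44, 6.57, 5.62 and 8.74, Flt3, at 7.34, 7.37, 6.67 and 8.97, and Il7r, at 5.64, 5.54, 4.89 and 6.20, were highest on WT. In DKO 2 of the 9 markers were above WT, Cd48 among them at 0.52, named after its value was seen.

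The 11 measured monocyte markers had medians of -0.49, 0.44 and 0.45, with 2, 11 and 7 of the 11 above WT. In DKO Csf1r (1.93), Fcgr1 (1.82), Adgre1 (1.76) and Cx3cr1 (1.29) were above WT and 4 markers of the list were below it. The 18 measured stem cell markers had medians of -0.03, -0.13 and 0.07, and their largest differences went both ways. Tek was 1.25 below WT in DKO and Gata2 0.93 below it in Foxo3aKO, while Slamf1 was 1.11 above WT in Fancd2KO and Vwf 1.08 above it in Fancd2KO and 1.02 in DKO. The 11 measured erythroid markers had medians of -0.57, -0.53 and -0.08, with 0, 1 and 5 of them above WT. In DKO 3 were at least 1.5-fold higher (27.3%, against 4.95% of all genes) and 2 at least 1.5-fold lower (18.2%, against 4.93%). The largest differences were those of Car1 (-1.42, -1.48 and 0.60) and Rhag (-0.47, -0.71 and 1.21). Medians of the B cell, T and NK cell and megakaryocyte lists ran from -0.57 to 0.44, but single genes differed more. In the megakaryocyte list Ppbp differed from WT by -3.11, -3.29 and -3.39, and Selp was 1.55 above WT in Fancd2KO. Cd3d of the T and NK cell list was 2.24 above WT in Foxo3aKO. Vpreb3 of the B cell list differed by -1.47 in DKO.

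**Figure D5:**
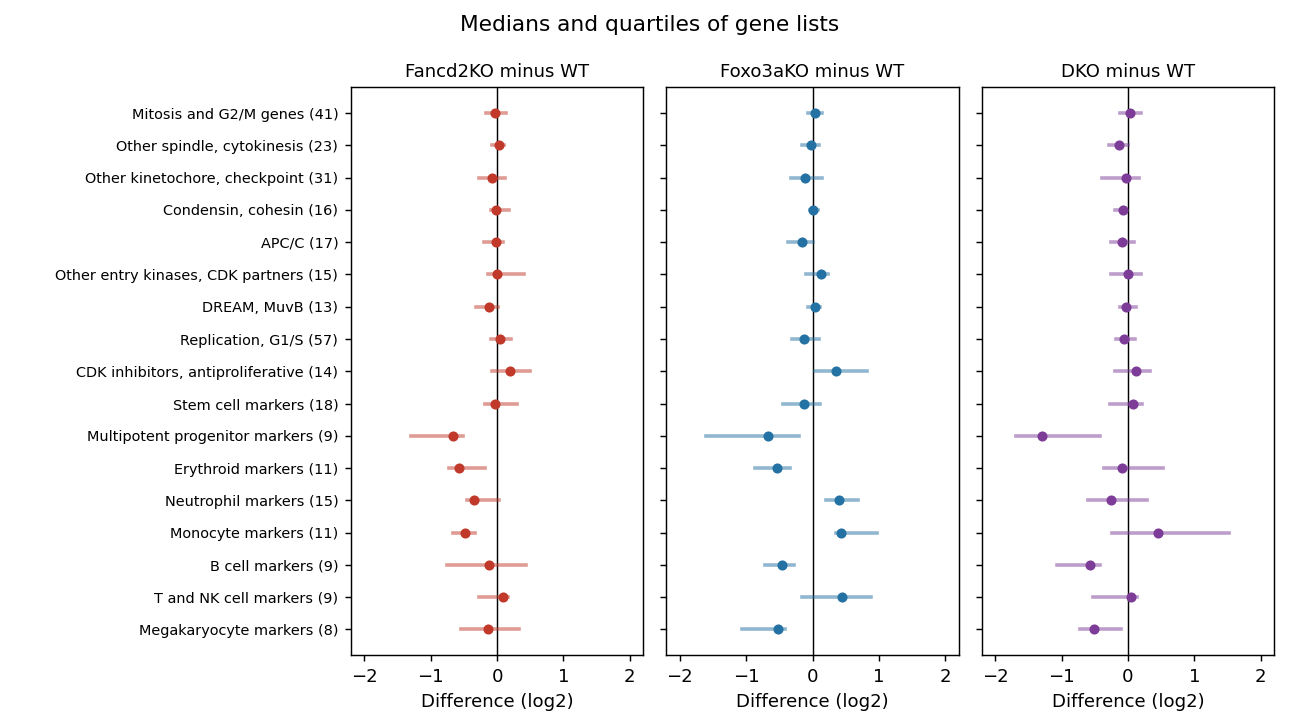
Median (point) and quartiles (bar) of the difference from WT (log2, x axis) for the mitosis and G2/M genes, 8 lists of related processes and 8 marker lists, in Fancd2KO, Foxo3aKO and DKO, with the number of measured genes in brackets. The mitosis members' medians lie between -0.03 and 0.04, while the multipotent progenitor markers lie at -0.66, -0.67 and -1.30.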

How the data were processed

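RNA of sorted cells was hybridised to 1 array per genotype (Fancd2KO, Foxo3aKO, DKO and WT). The deposited table held log2 expression values made by the authors, and Affymetrix Expression Console was used, per the submitters' processing notes. Its version is not given in the sources used here, nor how values were summarised, normalised or filtered. The scale was read from the range of the values.

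Of 41345 probe sets, 23521 had 1 gene symbol in the platform annotation and 1814 had several. Those with 1 symbol were used, the brightest by mean over the 4 arrays standing for its gene, which gave 22180 genes. Values were subtracted per gene on the log2 scale with Python 3.11.15, pandas 2.3.3 and NumPy 2.4.6, and the code was tested on simulated data. Genes at least 1.5-fold from WT were counted, with no filter on dim genes. No test was made, since each genotype had 1 array, and the number of arrays limits the precision. Alternatives were quantile normalisation, centring of arrays, the mean over probe sets, dim-gene rules and a 2-fold threshold.

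Named were members past 1.5-fold, Mki67, Top2a, Cdk1, Ccnb1, Plk1, Foxm1, Aurkb and Birc5, up to 4 genes of each other list with the largest difference from WT, and Fancd2 and Foxo3. Kit, Cd34, Cd48, Mpo, Prtn3, Ctsg, S100a8 and further members were named outside that rule. Members and lists were chosen with earlier results of these data known. Sequences are RefSeq's, build GRCm38.p6.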

Additional observations from a re-analysis of the deposited data

Results flagged for a closer look

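Cenpa, the centromeric histone gene, differed in its response to Fancd2 loss between the Foxo3a backgrounds. Fancd2 loss went with 0.66 log2 in Fancd2KO minus WT and with -0.02 in DKO minus Foxo3aKO, so the second was 0.68 lower, a departure of -0.68 of DKO from the sum of the single differences. It drew attention because the 2 differences had opposite signs and 1 of them passed 1.5-fold. The second lay near 0, and at 0.03 after quantile normalisation it no longer had the opposite sign. The difference between the backgrounds was not tested, with 1 array for each genotype.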

How the results depend on the processing

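Only 2 of the 5 alternatives to the values, quantile normalisation and centring of arrays, could change a member's value. The mean over probe sets and both dim-gene rules left every member as it was, since each has 1 probe set and stands above 5.51 on all arrays, and so say nothing of stability. Under the 2, the medians of the members shifted by at most 0.07 log2 and single member differences by at most 0.10. Of those 12 medians, 3 had the other sign, all near 0: DKO minus Foxo3aKO (0.05) and the departure of DKO (0.04) after quantile normalisation, and DKO minus WT (-0.04) after centring each array on its median. Quantile normalisation raised the member medians of DKO minus Fancd2KO from 0.06 to 0.13 and of DKO minus WT from 0.03 to 0.08. Over all genes these 2 medians were then 0.02 and 0.03. After centring, 1 member was at least 1.5-fold lower in DKO than in Fancd2KO, against 0 as deposited, because Cenpa crossed the threshold. At a 2-fold threshold 0 members were higher in Fancd2KO than in WT, against 1 at 1.5-fold. After quantile normalisation, an alternative chosen for this count after seeing the data, 4 members were lower with Foxo3a loss in both pairs, against 7 as deposited, and the cause was not tested. The share of all genes under that alternative is not given here. Cenpa in DKO minus Foxo3aKO, -0.02 as deposited, was 0.03 after quantile normalisation.

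The arrays limit these results in 3 ways. Single arrays give no error, the disagreement of probe sets of 1 gene (SD 0.39 to 0.41) leaves out errors shared within an array, and the Foxo3 probe set did not show the labelled loss. No paired analysis was possible because the groups hold 1 array each.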

Other observations

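Differences from WT were also set out by the CHR. The 25 measured members with a CHR had medians of -0.03 in Fancd2KO, 0.04 in Foxo3aKO and -0.04 in DKO, and the 8 without one had -0.06, 0.06 and 0.00. The median span over the 4 arrays was 0.29 log2 for those with a CHR and 0.25 for those without.

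The array on which a member was highest was Fancd2KO for 6 members (14.6%), Foxo3aKO for 12 (29.3%), DKO for 14 (34.1%) and WT for 9 (21.95%). Over all genes it was Fancd2KO for 24.6%, Foxo3aKO for 22.4%, DKO for 28.9% and WT for 24.2%. Over the genes of the same level these shares were 27.9%, 22.3%, 21.1% and 28.7%. The lowest array was Fancd2KO for 14 members (34.1%), Foxo3aKO for 7 (17.1%), DKO for 8 (19.5%) and WT for 12 (29.3%), against 24.4%, 28.2%, 21.8% and 25.7% of all genes. Among the 7490 genes of the same level it was Fancd2KO for 1550, Foxo3aKO for 2490, DKO for 2028 and WT for 1422.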
